A study of Mus musculus with 6 samples.

Results

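The elongases of very long chain fatty acids, Elovl1, Elovl2, Elovl3, Elovl4, Elovl5, Elovl6 and Elovl7, and the fatty acid desaturases Fads1 and Fads2 were examined in germ cells of control and Mgat1 cKO mice. The 9 genes were taken by their symbols, and all 9 were among the 23152 genes measured. They were covered by 92 exon level probe sets that carried 1 gene symbol each, and a gene's value was the mean of its probe sets on the log2 scale. Of the 9 genes, Elovl3 was lower in the Mgat1 cKO germ cell preparations, none was higher, and the other 8 did not pass the test. With the median of the probe sets in place of the mean, Elovl3 did not pass either (limma adjusted p = 0.26).

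Control mice were Mgat1[F/F] and mutant mice were Mgat1[F/F]:Stra8-iCre, so both genotypes carried the floxed Mgat1 alleles and only the mutants carried the Cre transgene. Stra8-iCre is driven by a Stra8 promoter and acts from spermatogonia onward. Mgat1 encodes the transferase that starts the synthesis of hybrid and complex N-glycans. All mice were FVB males of 23 dpp, and germ cells were released from the testes with enzymes. For each genotype, RNA of 6 mice was pooled and aliquots of the pool went onto 3 Mouse Gene 2.0 ST arrays, 6 arrays in all. Every SD and p-value below therefore measures the spread between aliquots of a pool, and none covers the variation between mice.

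Elongases sit in the endoplasmic reticulum and carry out the condensation that lengthens an acyl chain, after which a ketoreductase, a dehydratase and an enoyl reductase complete the cycle. Desaturases insert double bonds with electrons from cytochrome b5, and the alternation of both kinds of enzyme turns dietary precursors into polyunsaturated fatty acids. Germ cells of the testis are known for very long polyunsaturated chains in their phospholipids and sphingolipids, and male mice without Elovl2 or without Fads2 are known to be infertile.

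The median difference of all genes, Mgat1 cKO minus control, was -0.05 on the log2 scale, and 64.5% of genes lay below 0. At an adjusted p under 0.05 (limma, Benjamini-Hochberg over all genes), 1405 genes were higher (6.07%) and 543 were lower (2.35%) in Mgat1 cKO. Mgat1 itself read 6.17, 6.44 and 6.33 in control and 6.35, 6.10 and 6.45 in Mgat1 cKO, a difference of -0.02 (limma adjusted p = 0.94). Of its 12 probe sets, 17248953 passed the test and had non-overlapping arrays, at a mean of 6.64 in control and 5.63 in Mgat1 cKO (limma adjusted p = 0.037). Probe set 17248948 had non-overlapping arrays the other way, at 7.93 in control and 8.34 in Mgat1 cKO (limma adjusted p = 0.26). Which probe sets lie in the deleted part is not known here, so the gene mean checks nothing about the labels. Markers of spermatogonia and spermatocytes were all on the array (6 of 6 and 7 of 7), and none passed the test in either direction. Markers of Sertoli and Leydig cells were on the array as well, 10 of 10 and 5 of 6. A place on the array checks nothing about the germ cell label. Mean levels in the control arrays were 7.17 to 7.21 for spermatogonia and 9.77 to 9.88 for spermatocytes. They were 8.47 to 8.54 for Sertoli, 8.14 to 8.35 for Leydig and 8.42 to 8.50 for peritubular and stromal markers. What these levels mean for the label was not tested. RMA values carry no detection call and no true 0, so no marker can be called absent.

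Elovl3 elongates saturated and monounsaturated chains and is best known from skin glands, liver and brown fat. Its gene level values were 5.53, 5.52 and 5.61 in the control arrays and 5.16, 4.92 and 4.98 in the Mgat1 cKO arrays. All 3 mutant arrays were below all 3 control arrays. The mean went from 5.56 ± 0.05 to 5.02 ± 0.13 (SD, n = 3 each), which was 1.45-fold lower. On the log2 scale the difference was -0.54 ± 0.08 (SE), with a 95% interval of -0.72 to -0.36 and a limma adjusted p of 0.0036. It was the 1 called gene of 9, where 2.35% of all genes were called lower. No member passed a 2-fold change as well, which 2.57% of all genes did in either direction. Of these genes, 586 were higher and 8 were lower in Mgat1 cKO.

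All 6 probe sets of Elovl3 had a difference below 0, from -0.77 to -0.16 with a median of -0.59. In 3 of them, 17359920, 17359921 and 17359924, the arrays of the genotypes did not overlap, with the lower values in Mgat1 cKO as in 10.8% of all probe sets with 1 symbol. Probe set 17359921 read 5.68, 5.91 and 6.19 in control and 5.44, 5.04 and 5.55 in Mgat1 cKO. Probe set 17359919, with the smallest difference, read 6.42, 6.02 and 6.52 in control and 6.04, 6.22 and 6.21 in Mgat1 cKO, and its arrays overlapped. No single probe set passed the adjustment over all probe sets (smallest limma adjusted p = 0.27), and the mean of 3 of the 6 lay under a log2 value of 5. The call rests on averaging the 6 probe sets. With their median in place of the mean, the difference was -0.39 and the limma adjusted p 0.26.

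**Figure D1:**
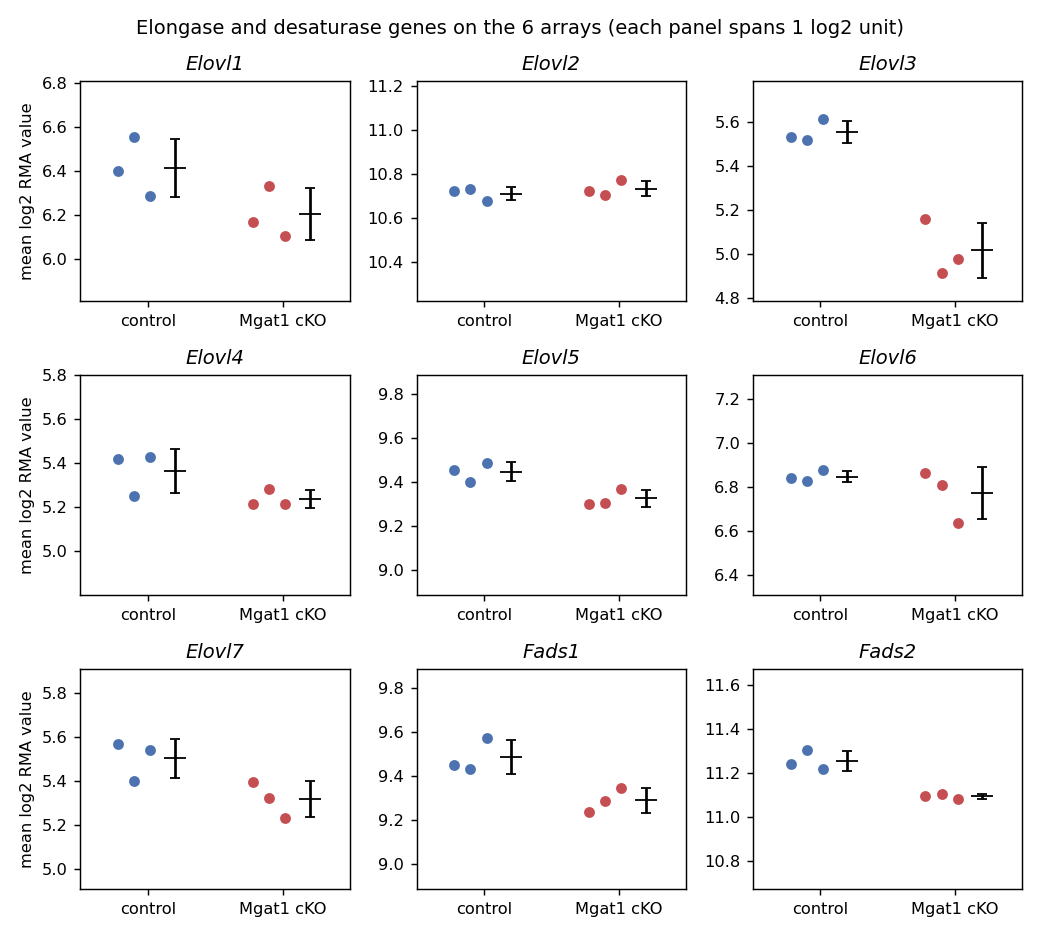
Gene level log2 values (mean of the probe sets of a gene) of the 9 elongase and desaturase genes on each of the 3 control and 3 Mgat1 cKO arrays (points), with the mean and SD of each genotype (bars). The Elovl3 arrays of Mgat1 cKO lie between 4.92 and 5.16 and all control arrays at 5.52 or above, whereas the Elovl2 arrays of the genotypes lie over each other.

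The remaining saturated chain elongases showed small differences. Elovl1, which makes very long saturated and monounsaturated chains for sphingolipids, read 6.40, 6.55 and 6.29 in control and 6.17, 6.33 and 6.11 in Mgat1 cKO. The groups overlapped, and the difference of -0.21 ± 0.09 (SE) did not pass the test (limma adjusted p = 0.21), although 13 of its 16 probe sets lay below 0. Elovl6, which elongates palmitate, read 6.84, 6.83 and 6.88 in control and 6.86, 6.81 and 6.64 in Mgat1 cKO. One mutant array was low and the other two lay within the control range or just beside it, at a difference of -0.08 ± 0.07 (SE) and a limma adjusted p of 0.57. Elovl7, another elongase of saturated and monounsaturated chains, read 5.57, 5.40 and 5.54 in control and 5.40, 5.33 and 5.24 in Mgat1 cKO. Control array 2 and mutant array 1 almost met but the groups did not overlap, and the difference of -0.18 (95% interval -0.36 to -0.01) had a limma adjusted p of 0.18.

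Within Elovl6 a pair of probe sets had opposite signs. Probe set 17402560 read 7.88, 7.84 and 7.93 in control and 7.47, 7.44 and 7.49 in Mgat1 cKO, a difference of -0.42 (limma adjusted p = 0.14). Probe set 17402563 read 8.36, 8.27 and 8.35 in control and 8.55, 8.84 and 8.52 in Mgat1 cKO, a difference of 0.31 (limma adjusted p = 0.41). The arrays of the genotypes overlapped in neither. These were 1 of the 7 Elovl6 probe sets in each direction. Of all probe sets with 1 symbol, 10.8% separated with the lower and 8.47% with the higher values in Mgat1 cKO. The test for unequal probe sets within a gene (limma's diffSplice) called none of the 9 genes, Elovl6 included (smallest adjusted p among the 9 = 0.17), where 11.7% of all genes with 2 or more probe sets were called. That test called too many unchanged genes on simulated data. A test of each probe set against the mean of the others, added after seeing the data, called none of the 9 either and 1.76% of all such genes.

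Among the elongases of polyunsaturated chains, Elovl2 was the 1 member with a difference above 0. Elovl2 lengthens long polyunsaturated chains on the way to docosahexaenoic acid. It read 10.72, 10.73 and 10.68 in control and 10.72, 10.70 and 10.77 in Mgat1 cKO. The groups overlapped, and the difference was 0.02 with a 95% interval of -0.11 to 0.16 (limma adjusted p = 0.84). Elovl5, which acts on shorter polyunsaturated chains, read 9.46, 9.40 and 9.49 in control and 9.30, 9.31 and 9.37 in Mgat1 cKO. All mutant arrays were below all control arrays, but the difference of -0.12 ± 0.06 (SE) did not pass the test (limma adjusted p = 0.27). Elovl4, known for the longest chains, in retina, skin and testis, read 5.42, 5.25 and 5.43 in control and 5.21, 5.28 and 5.21 in Mgat1 cKO. These overlapped, at a difference of -0.13 (95% interval -0.29 to 0.03, limma adjusted p = 0.30).

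Single probe sets of these genes spread further than the gene means. Elovl4 held both the lowest and the highest difference of the 92 probe sets, -0.91 in 17529311 and 0.54 in 17529314. The mean of 4 of the 8 Elovl4 probe sets lay under a log2 value of 5, these included (4.67 and 4.96). Probe set 17529311 read 5.17, 4.80 and 5.43 in control and 3.93, 4.59 and 4.13 in Mgat1 cKO, without overlap (limma adjusted p = 0.19). Probe set 17529314 overlapped between the genotypes. In Elovl5, the largest difference was -0.50, in 17519601. In Elovl2, 2 of 10 probe sets had non-overlapping arrays with the higher values in Mgat1 cKO and 1 with the lower values, where 8.47% and 10.8% of all probe sets with 1 symbol did so.

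**Figure D2:**
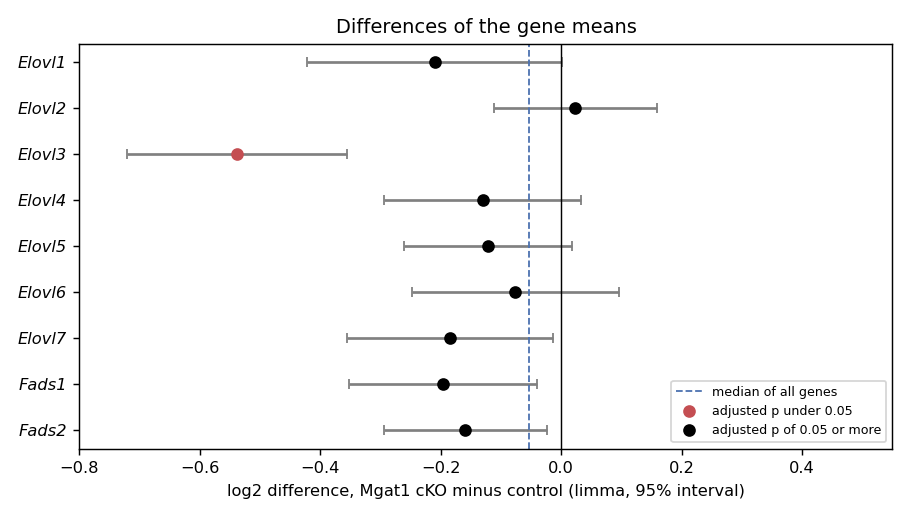
Log2 difference of each gene, Mgat1 cKO minus control, with its 95% interval from limma (3 arrays per genotype). Elovl3 at -0.54 is the 1 gene with an adjusted p under 0.05, and the interval of Elovl2 runs from -0.11 to 0.16.

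Fads1 and Fads2 carry out the desaturation steps of polyunsaturated fatty acid synthesis, Fads2 the initial one and Fads1 the one after elongation, and they neighbour each other on the chromosome. Fads1 read 9.45, 9.43 and 9.57 in control and 9.23, 9.29 and 9.35 in Mgat1 cKO. The mean went from 9.49 ± 0.08 to 9.29 ± 0.06 (SD, n = 3 each), a difference of -0.20 ± 0.07 (SE). Fads2 read 11.24, 11.30 and 11.22 in control and 11.10, 11.10 and 11.08 in Mgat1 cKO, a difference of -0.16 ± 0.06 (SE). In both genes all mutant arrays were below all control arrays, but neither passed the test, with limma adjusted p-values of 0.13 for Fads1 and 0.15 for Fads2. With a spread that follows the signal intensity (limma's trend), both passed, at adjusted p-values of 0.022 and 0.0064. That setting called more genes in general. Of all 23152 genes, 1385 were lower with it against 543 without, and 1667 were higher against 1405.

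The probe sets of the desaturases leaned to the same side. For Fads1, 13 of 14 had a difference below 0, and for Fads2 10 of 10. Arrays of the genotypes did not overlap in 8 probe sets of Fads1 and 6 of Fads2, all with the lower values in Mgat1 cKO, where 10.8% of all probe sets with 1 symbol did so. Fads1 probe set 17357468 read 10.70, 10.79 and 10.71 in control and 10.52, 10.52 and 10.45 in Mgat1 cKO. Fads2 probe set 17362599, with the largest difference of that gene (-0.39), read 9.21, 9.55 and 9.42 in control and 9.00, 9.13 and 8.88 in Mgat1 cKO. Probe sets of 1 gene share their RNA and their arrays and are not replicates. No probe set of either gene passed the adjustment over all probe sets.

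Over the 9 genes, 8 had a difference below 0, with a median of -0.16 against -0.05 for all genes. In 5 genes (Elovl3, Elovl5, Elovl7, Fads1 and Fads2) the arrays did not overlap, all with the lower values in Mgat1 cKO, where 20.1% of all genes did so. In no member did they separate with the higher values in Mgat1 cKO, as 11.2% of all genes did. An unadjusted p under 0.05 was reached by 4 of the 9, all with the lower values in Mgat1 cKO, against 14.5% of all genes in that direction. Of the 92 probe sets, 73 lay below 0 (58% of all probe sets with 1 symbol did) and 19 above, with a median of -0.14. None of the 92 was called, where 1.87% of all probe sets were called higher and 0.18% lower, and 14 had an unadjusted p under 0.05. All 14 had the lower values in Mgat1 cKO, where 6% of all probe sets with 1 symbol had such a p in that direction. By kind of enzyme, 50 of 68 elongase probe sets and 23 of 24 desaturase probe sets lay below 0.

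**Figure D3:**
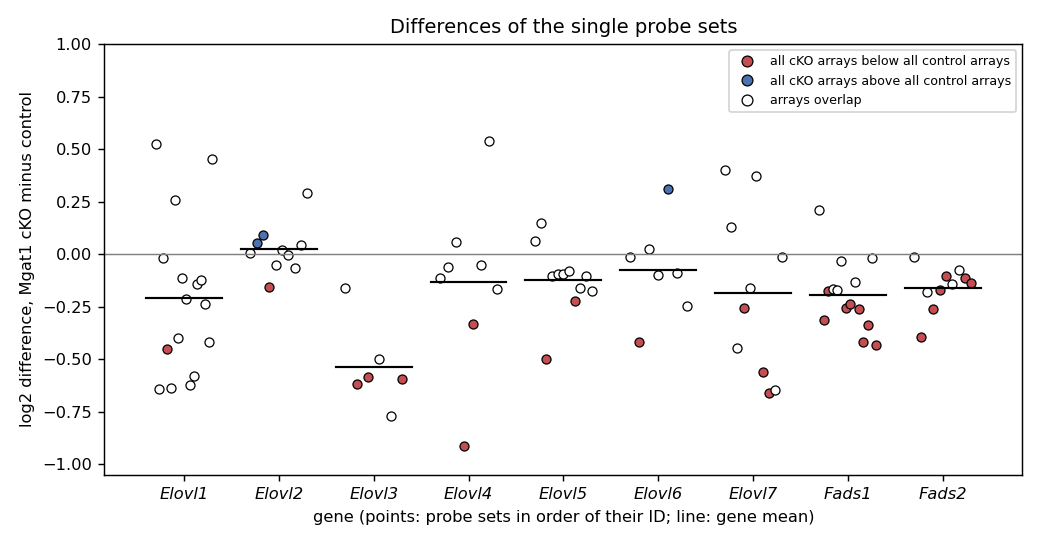
Log2 difference of each of the 92 probe sets, Mgat1 cKO minus control, by gene. The 6 probe sets of Elovl3 and the 10 of Fads2 all lie below 0, and those of Elovl4 run from -0.91 to 0.54.

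RNA came from a mixture of cells, and fewer cells of a type and less RNA per cell cannot be told apart. Markers of several cell types moved between the genotypes. Late spermatid markers were higher in 6 of 6, with a mean level of 6.34 to 6.41 in the control arrays and 8.86 to 8.97 in the Mgat1 cKO arrays, and round spermatid markers were higher in 4 of 6, at 8.09 to 8.13 against 9.05 to 9.11. Epididymal epithelium markers were lower in 4 of the 5 measured, at 6.39 to 6.50 in control and 5.70 to 5.86 in Mgat1 cKO. Lower calls were also made for 2 of 5 Leydig, 2 of 6 peritubular and stromal, 2 of 4 macrophage and 1 of 10 Sertoli markers. Of all genes, 6.07% were called higher and 2.35% lower. Differences lay below 0 in 3 of 5 Leydig, 6 of 6 peritubular and stromal, 4 of 4 macrophage and 7 of 10 Sertoli markers. Leydig differences ran from -0.43 to 0.80, and the mean Leydig level was 8.14 to 8.35 in control and 8.19 to 8.36 in Mgat1 cKO. List medians were -0.64 for the epididymal epithelium, -0.25 for Leydig, -0.22 for peritubular and stromal, -0.21 for macrophage and -0.08 for Sertoli cells. The lists of earlier germ cells, without a call, also had medians below 0. These were -0.14 for spermatogonia (6 of 6 markers below 0) and -0.15 for spermatocytes (6 of 7). The part of all these cell types in the values of Elovl3 and of the desaturases was not tested.

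The 3 genes whose pattern over the 6 arrays was most like that of Elovl3, by root mean square distance after centring each gene, were Pygm (0.0149), Wfdc8 (0.0394) and H2-K1 (0.0419), out of 20832 genes compared. Pygm, the muscle glycogen phosphorylase, read 7.48, 7.45 and 7.58 in control and 7.14, 6.89 and 6.93 in Mgat1 cKO. As in Elovl3, mutant array 1 was the highest of the mutant arrays. Pygm was chosen for its likeness over these same 6 arrays, so the shared order is no separate observation. Wfdc8, of the WAP domain family, and H2-K1, a class I histocompatibility antigen, differed by -0.46 and -0.55.

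Genes that work beside the elongases and desaturases were followed in 8 lists with 91 entries, of which 87 were measured. Of these, 4 were higher and 4 lower, which is 4.60% in each direction against 6.07% and 2.35% of all genes. In the elongation cycle itself, 2 of 7 partners were lower and none higher, with a median of -0.08. Hacd3, a dehydratase of the cycle, read 9.37, 9.36 and 9.38 in control and 9.02, 9.10 and 9.07 in Mgat1 cKO. Its difference was -0.31 (limma adjusted p = 0.015), and Tecrl, which resembles the enoyl reductase of the cycle, differed by -0.50 (limma adjusted p = 0.044). When each array was left out in turn, Hacd3 lost its call in 4 of 6 fits and Tecrl in all 6. The difference stayed at -0.33 to -0.29 for Hacd3 and at -0.58 to -0.39 for Tecrl. Over all genes, lower calls went from 543 to between 181 and 324 in these fits.

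The remaining desaturases and electron donors, with 13 of 14 measured, held no call, at a median of -0.15. Fads3, the neighbour of Fads2, differed by 0.12 (limma adjusted p = 0.45) and Cyb5b, a cytochrome b5, by -0.22 (limma adjusted p = 0.057). Both were singled out after their values were seen. Fatty acid synthesis (7 measured, median -0.03), peroxisomal chain shortening (10 measured, median -0.12) and transcription factors of lipid genes (13 measured, median -0.05) held no call either.

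The 4 list genes called higher encode enzymes that activate, hydroxylate or transfer fatty acids. They were 4.60% of the 87 measured, where 6.07% of all genes were called higher. Lpcat2b, of the lysophosphatidylcholine acyltransferase family, read 6.63, 6.64 and 6.58 in control and 8.38, 8.47 and 8.38 in Mgat1 cKO, a difference of 1.79 (limma adjusted p = 6.0e-07). It was the 1 call among 12 genes of phospholipid acyl remodelling, whose median was -0.03. Acsbg2, an acyl-CoA synthetase, read 5.75, 5.59 and 5.62 in control and 7.47, 7.33 and 7.44 in Mgat1 cKO, a difference of 1.76 (limma adjusted p = 1.5e-06). Acsl1, a synthetase of the long-chain group, read 7.64, 7.51 and 7.58 in control and 8.76, 8.60 and 8.67 in Mgat1 cKO, a difference of 1.10 (limma adjusted p = 1.9e-05). In both synthetases every mutant array stood well above every control array.

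Acsbg2 and Acsl1 belonged to the list of fatty acid activation and transport, with 18 genes measured and a median of -0.10. In the same list Mfsd2a, a transporter of lysophospholipids with docosahexaenoic acid, differed by -0.29 (limma adjusted p = 0.040) and Acsbg1, a relative of Acsbg2, by -0.27 (limma adjusted p = 0.044). Each lost its call in 5 of 6 fits when arrays were left out in turn, at differences of -0.34 to -0.26 for Mfsd2a and -0.32 to -0.25 for Acsbg1. Of the ceramide synthases and the hydroxylase, 7 of 8 were measured with a median of -0.16, and Fa2h, which hydroxylates the fatty acids of ceramides, was higher. It read 8.59, 8.55 and 8.51 in control and 8.91, 9.00 and 9.02 in Mgat1 cKO, a difference of 0.42 (limma adjusted p = 0.0039). Fa2h, Acsl1, Acsbg2 and Lpcat2b kept their calls in all 6. With the median of probe sets in place of the mean, Fa2h differed by 0.28 and lost its call (limma adjusted p = 0.24), as did the 4 genes called lower, whereas Acsl1, Acsbg2 and Lpcat2b kept theirs. The spermatid markers given above were higher in the same arrays, and their part in these rises was not tested.

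**Figure D4:**
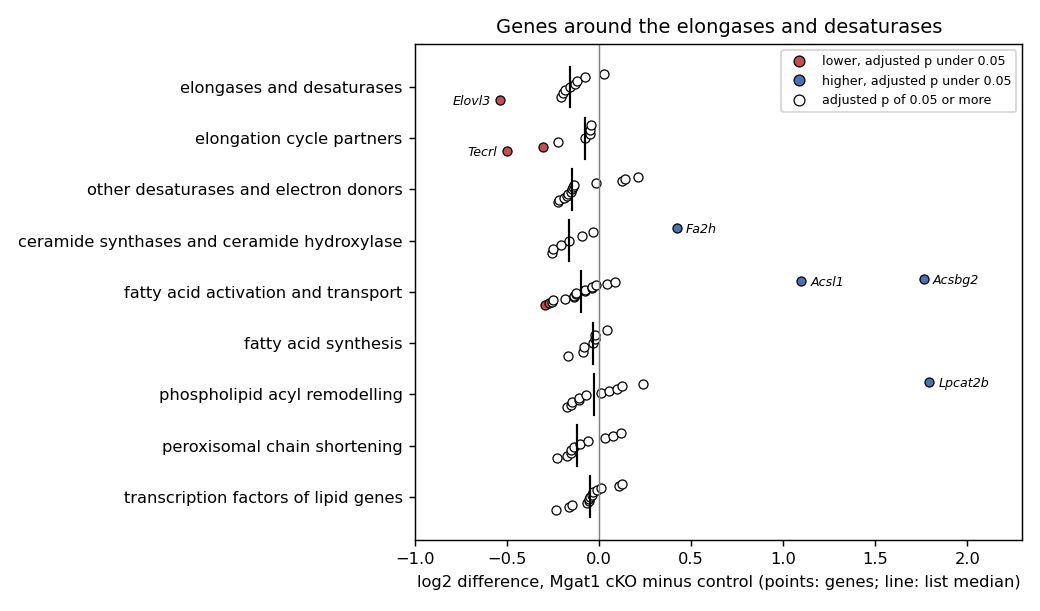
Log2 difference of each gene, Mgat1 cKO minus control, in the elongases and desaturases and in 8 lists of related genes, with the median of each list as a line. Lpcat2b at 1.79, Acsbg2 at 1.76 and Acsl1 at 1.10 stand to the right of all other genes, and the medians lie between -0.16 and -0.03.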

How the data were processed

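The deposited log2 values were made by the authors from the array scans with RMA, which corrects background, normalizes quantiles and summarizes probes, using Affymetrix Expression Console. Its version and the genome build are not given in the sources used here. The table holds 269751 exon level probe sets: 233753 with 1 gene symbol, 5139 with several and 30859 without any. Array medians were 6.85 to 6.87. A gene's value is the mean of its single-symbol probe sets, for 23152 genes (median 8 probe sets). Genes and probe sets were tested with limma 3.58.1 (lmFit, eBayes without trend) in R 4.3.3, Mgat1 cKO against control with 3 arrays each, and p-values were adjusted (Benjamini-Hochberg) over all genes or all probe sets. The number of arrays limits the precision. Unequal probe sets were tested with diffSplice, which called too many unchanged genes on simulated data. Arrays were called non-overlapping where all 3 values of one genotype lay beyond all 3 of the other. The study's own thresholds were a 2-fold change and an adjusted analysis of variance.

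The text names all 9 members, Mgat1, the passing genes of each of the 8 pathway lists where these are 4 or fewer (otherwise the 2 highest and 2 lowest), and the 3 genes most like the member with the largest difference. Fads3 and Cyb5b were named after their values were seen, and markers are given by list. Members and lists were chosen with earlier results of these data known. Alternatives were the intensity trend, plain analysis of variance, a replicate block, the median of probe sets, the difference of group medians, probe sets with a mean of 5 or more, repeated scaling, both fold limits and leaving out each array. Plots were made in matplotlib 3.10.9 under Python 3.11.15.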

Additional observations from a re-analysis of the deposited data

How the results depend on the processing

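Elovl3 passed the test in 12 of 13 refits, with differences of -0.61 to -0.39 and adjusted p-values of 0.0026 to 0.26, and was lost with the median of probe sets. These refits reuse the same 6 arrays and are not separate observations. With probe sets of a mean under 5 left out, Elovl3 passed narrowly (-0.45, limma adjusted p = 0.044). The same held for plain analysis of variance (adjusted p = 0.041). The difference of group medians, which has no test of its own, was -0.56. Elovl3 was called in all 6 fits that left out 1 array (-0.61 to -0.49). In these 14 alternatives Elovl2 stayed above 0 and the other 8 members below 0. Called members with lower values were 3 with the intensity trend (Elovl3, Fads1 and Fads2), 0 with the median of probe sets and 0 at either fold limit (2-fold and 1.5-fold). Plain analysis of variance called 1 member probe set, 17402560 of Elovl6 (adjusted p = 0.022). The SDs of this probe set were 0.0455 in control and 0.025 in Mgat1 cKO, and its limma adjusted p was 0.14. The share of all probe sets called by plain analysis of variance is not given here.

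Over all genes, 1385 were lower with the trend, 135 with the median, 33 over 1.5-fold, 8 over 2-fold and 181 to 324 without 1 array. Higher genes over 1.5-fold were 929 and over 2-fold 586, and without 1 array 1148 to 1228. Pathway list genes lower were 10 with the trend, 0 with the median and 0 to 2 without 1 array. Unequal probe sets were called in 0 to 1 members without 1 array: Elovl4 without control replicate 1 (adjusted p = 0.048) and Fads1 without control replicate 3 (adjusted p = 0.0014). The share of all genes called for unequal probe sets in these fits is not given here.

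Arrays share only a replicate number: across genes, deviations of same-numbered arrays correlated at -0.02, -0.06 and -0.02. With the number as a replicate block, 208 genes were lower and 0 of the pathway lists, and Elovl3 stayed called (limma adjusted p = 0.013). Repeated scaling moved the median of all genes from -0.05 to -0.04. The cause of these changes was not tested.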
